A study of Sus scrofa with 6 samples.

Results

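Circular RNAs (circRNAs) arise when a splice donor is joined back to an upstream splice acceptor of the same transcript, which leaves a closed ring of exons marked by a back-splice junction. The circRNAs described here are all those listed for 2 host genes of chromatin organization, SATB1 and SMARCA5. They were taken by host gene name from the deposited table of boar testis circRNAs, which gave 12 of 4350 circRNAs, 4 of SATB1 and 8 of SMARCA5, all exonic. Testis tissue came from 3 Piglet-D30 boars, 30 days old, and 3 Adult-D210 boars, 210 days old, all of the Landrace breed, with 1 library per boar. The adults were sexually mature, with normal spermatogenesis judged from their semen. Whole testis was used, so every value is an average over germ, Sertoli, interstitial and other cells. Ribosomal RNA was depleted and linear RNA digested with RNase R before sequencing, so the linear host mRNAs were not measured.

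SATB1 is a homeobox protein of the nuclear matrix that binds AT-rich DNA, gathers chromatin into loops and recruits remodelling and histone-modifying enzymes to its sites. It is best known for its role in T cell development. SMARCA5, also called SNF2H, is an ATPase of ISWI complexes, which slide and space nucleosomes, and its ACF complex is among the enzymes that SATB1 recruits. A circRNA of SMARCA5 is well known from human tumours. In the annotation of the deposited table, SATB1 carried 26 Gene Ontology terms and SMARCA5 24, and they shared 3, chromatin remodeling, DNA binding and nucleus.

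The 6 libraries held 12701 to 33091 back-splice reads in the table, out of 37364412 to 49179118 mapped reads. The study reported many more circRNAs than the table lists, so these are only part of the back-splice reads of a library. Levels are given as SRPBM, in which the back-splice reads are scaled to the mapped reads of the library and to the read length of 150. A level resting on 3 reads, used here as the limit that a count of 0 allows, was between 0.407 and 0.535 SRPBM. Piglet-D30 replicate 1 held reads of all 2552 exonic circRNAs of the table, whereas no other library held reads of more than 1247. It also had the most back-splice reads relative to its mapped reads. Since every exonic row of the table had a read in it, that excess cannot be told apart from the make-up of the table. CircRNAs of SATB1 and SMARCA5 without a read in that library were not analysed here. The host genes were chosen by the known levels and age difference of their circRNAs in these same libraries, so differences between the ages are described below and carry no test.

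The circRNAs of the host genes were laid out differently. Positions are given as in the table, on the pig assembly Sscrofa10.2 named in the submitters' notes, and both genes lie on the minus strand. The SATB1 circRNAs came from 1 transcript, ENSSSCT00000012267, and lay on chromosome 13 between 6023984 and 6097905. All 4 shared the upstream back-splice end at 6097905 and differed in how far they reached downstream. CircRNA10646 (6091992 to 6097905) held 4 exons, circRNA10645 (from 6061829) 7, circRNA10644 (from 6052747) 8 and circRNA10643 (from 6023984) 9. The shared upstream intron is 17545 nt long, longer than that of 81.7% of the exonic circRNAs with both flanking introns listed (2515, median 5504 nt). The intron downstream of circRNA10646 is 19459 nt long.

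The SMARCA5 circRNAs also came from 1 transcript, ENSSSCT00000009907, on chromosome 8 between 89343634 and 89375078, but used 7 upstream and 7 downstream ends, and 9 of their 28 pairs overlapped. Reading along the transcript, circRNA10193 (89363712 to 89375078, 5 exons) came before circRNA10194 (89366755 to 89370001, 2 exons), circRNA10192 (89363712 to 89366855, 3 exons), circRNA10191 (89361362 to 89366855, 5 exons) and circRNA10190 (89359060 to 89364758, 5 exons). Further downstream lay circRNA10189 (89353525 to 89355896), circRNA10188 (89347874 to 89348339) and circRNA10187 (89343634 to 89344386), each of 2 exons and apart from all others. CircRNA10191 and circRNA10192 shared their upstream end, and circRNA10192 and circRNA10193 their downstream end. A single intron of 3163 nt (89355897 to 89359059) separates circRNA10189 from circRNA10190, and one of 1996 nt (89364759 to 89366754) separates circRNA10190 from circRNA10194. The upstream introns of all 8 were between 873 nt (circRNA10187) and 5002 nt (circRNA10194) long, below the median of exonic circRNAs, and so were their downstream introns.

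**Figure D1:**
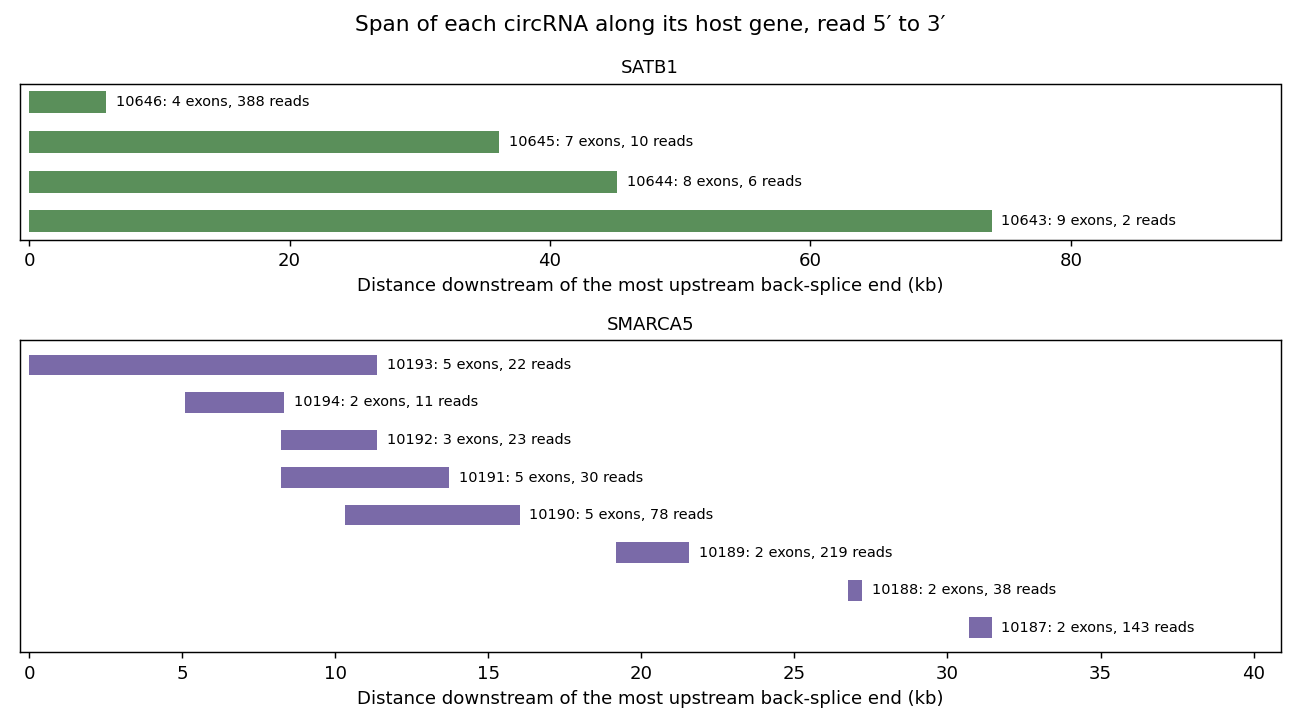
Position of the 4 SATB1 (top) and 8 SMARCA5 (bottom) circRNAs along their host gene in transcript direction. The x axis is the distance in kb downstream of the most upstream back-splice end, each bar spans first to last base with introns included, and the text gives the exon number and the reads over 6 libraries. The SATB1 bars start at 1 point and reach downstream to different ends, whereas the SMARCA5 bars are spread over 31445 nt.

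SATB1 was represented almost entirely by circRNA10646, the shortest of its circRNAs, with 388 of the 406 SATB1 reads. It was much more abundant in the piglet testes. CircRNA10646 had 204, 64 and 104 back-splice reads in Piglet-D30 replicates 1 to 3, or 36.4, 9.78 and 16.0 SRPBM. In Adult-D210 it had 7, 4 and 5 reads, or 0.949, 0.659 and 0.683 SRPBM. All 6 libraries held more than 3 reads, and the lowest piglet library was 10.3 times the highest adult library. The mean level was 20.7 ± 13.9 SRPBM (SD, n = 3) for the piglets and 0.764 ± 0.161 SRPBM (SD, n = 3) for the adults, a ratio of 27.1. Piglet-D30 replicate 1 set much of the piglet spread, and without it the ratio was 16.9.

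Scaled by TMM, which lines up the bulk of the circRNAs of each library, the fitted log2 fold change of circRNA10646 was −4.13 (SE 0.44), or 17.5-fold lower in Adult-D210. Over all 1341 circRNAs with at least 10 reads the median was −0.42. Without Piglet-D30 replicate 1 the value was −3.77, and the median over the 1046 circRNAs then tested was −0.08. With mapped reads as library size circRNA10646 was at −4.71, where the median of all circRNAs moved to −0.90. CircRNA10646 was called in the fit across all circRNAs, as 65 circRNAs (4.85%) were in this direction, and was also called under every alternative listed in the closing section. Since this difference led to the choice of the gene, nothing is read from that call. Fewer cells that make this circRNA and less of it per cell cannot be told apart in whole testis.

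The longer SATB1 circRNAs were rare. CircRNA10645 had 6, 1 and 2 reads in the piglets and 0, 1 and 0 in the adults. CircRNA10644 had 6 reads and circRNA10643 had 2, all in Piglet-D30 replicate 1. Of the 18 reads of these circRNAs, 14 were thus in the library that every exonic circRNA of the table had to appear in. CircRNA10645 was the only one of them with the 10 reads needed for the fit, with a log2 fold change of −2.47 (SE 1.65), and it was not called. In Adult-D210, 0 of 17 SATB1 reads belonged to circRNA10644 or circRNA10643, which allows a share of up to 17.6% for each, above their shares in any piglet library.

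Among the SATB1 circRNAs analysed, all with a read in Piglet-D30 replicate 1, circRNA10646 dominated at both ages. It made up 93.6% of the SATB1 reads in Piglet-D30 replicate 1 (204 of 218, exact Clopper-Pearson 95% interval 89.5 to 96.4), 98.5% in replicate 2 (64 of 65, 91.7 to 99.96) and 98.1% in replicate 3 (104 of 106, 93.4 to 99.8). In Adult-D210 its share was 7 of 7, 4 of 5 and 5 of 5 reads, or 93.3% ± 11.5 (SD, n = 3), against 96.7% ± 2.72 (SD, n = 3) in Piglet-D30. The adult interval of the library with 4 of 5 reads ran from 28.4% to 99.5%, so a change in the make-up of SATB1 could not be detected at this depth. These intervals cover counting error only. The summed SATB1 level, 21.7 ± 15.2 SRPBM (SD, n = 3) for the piglets and 0.819 ± 0.133 SRPBM (SD, n = 3) for the adults, therefore followed circRNA10646. In a fit over the summed exonic reads of 478 host genes its log2 fold change was −3.80 (SE 0.48), and SATB1 was called, as were 22.4% of host genes in either direction, 14.6% in this one and 7.74% in the other.

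**Figure D2:**
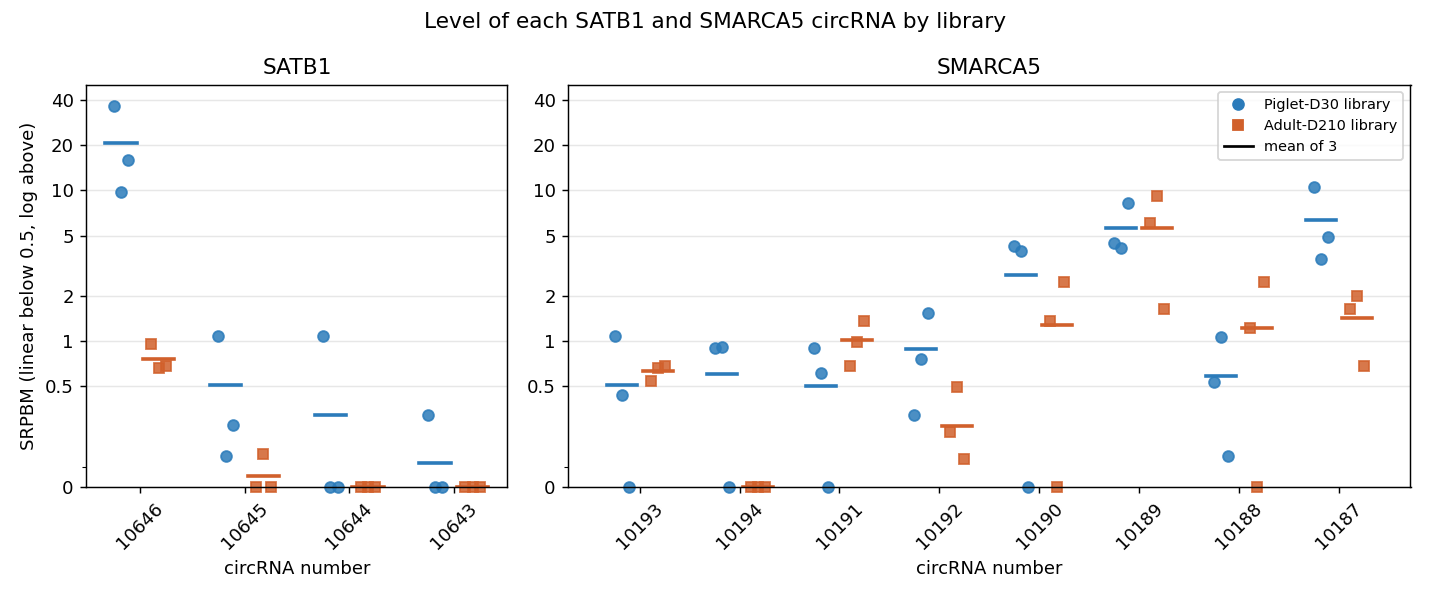
Level of each circRNA in each library, in SRPBM, on an axis that is linear below 0.5 and logarithmic above. Circles are Piglet-D30 and squares Adult-D210 libraries, and short lines are means of 3 libraries. For circRNA10646 the piglet libraries lie between 9.78 and 36.4 SRPBM and the adult libraries between 0.659 and 0.949, whereas most SMARCA5 circRNAs overlap between the ages.

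SMARCA5 circRNAs were abundant at both ages, and their sum differed far less between the ages than that of SATB1, by a ratio of 1.54 against 26.5 in mean SRPBM, or 1.32 against 16.0 without Piglet-D30 replicate 1. The SMARCA5 circRNAs analysed, all with a read in Piglet-D30 replicate 1, had 129, 101 and 97 reads in the piglets and 87, 81 and 69 in the adults. On the SRPBM scale every piglet library was above every adult library, at 23.0, 15.4 and 14.9 against 11.8, 13.3 and 9.43 SRPBM. How many host gene sums were separated in this way was not computed. Of the single circRNAs tested, 23.5% had every adult library below every piglet library. In the host gene fit with TMM the direction for SMARCA5 turned, to a log2 fold change of 0.14 (SE 0.32), and SMARCA5 was not called. With mapped reads as library size it was −0.62, while the median of all host genes was −0.29 with TMM and −1.08 with mapped reads. On both scales the SMARCA5 sum thus lay above the median host gene with all 6 libraries. Without Piglet-D30 replicate 1 the TMM values were −0.029 (SE 0.35) for SMARCA5 and −0.070 for the median host gene, a gap far smaller than the SE.

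The age difference in SRPBM came mostly from circRNA10187, the most downstream SMARCA5 circRNA. It had 59, 23 and 32 reads in the piglets and 12, 12 and 5 in the adults, or 10.5, 3.51 and 4.91 against 1.63, 1.98 and 0.683 SRPBM. The groups did not overlap, although the lowest piglet library was only 1.78 times the highest adult library. Its mean was 6.32 ± 3.71 SRPBM (SD, n = 3) for the piglets and 1.43 ± 0.67 SRPBM (SD, n = 3) for the adults, a ratio of 4.42, or 2.95 without Piglet-D30 replicate 1. This difference of 4.89 SRPBM was 78.1% of the difference of the SMARCA5 sum, 6.26 SRPBM. The other 7 SMARCA5 circRNAs together had 70, 78 and 65 reads in the piglets and 75, 69 and 64 in the adults. In SRPBM they summed to 11.5 ± 1.32 (SD, n = 3) and 10.1 ± 1.32 (SD, n = 3), with overlapping libraries.

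The TMM-scaled log2 fold change of circRNA10187 was −1.60 (SE 0.48), and it was not called. The limits were an adjusted p below 0.05 and a fold change of 1 or more on the log2 scale, either way. The study reported circRNA10187 as significantly lower in the sexually mature boars. Its methods name an FDR-adjusted p below 0.05, and its results a p value below 0.05. It also listed many more circRNAs than were fitted here, so the calls may not rest on the same set. In the fit made here circRNA10187 was called when at least 20 reads were required, at −1.60 again. Since the gene was chosen with this difference known, nothing is read from that call or from its absence in the main fit. Of the 12 circRNAs, 10 had the reads needed for the fit and 1, circRNA10646, was called, lower in the adults, and 0 were called higher, beside 8.28% of all circRNAs tested in either direction, 4.85% lower and 3.43% higher. In SRPBM, 2 of the 10, circRNA10646 and circRNA10187, had every adult library below every piglet library, as did 23.5% of all circRNAs tested, and 0 had the reverse, against 3.73%. Exonic circRNAs of the table all had a read in Piglet-D30 replicate 1, and no adult library was subject to this, so these shares do not weigh the directions evenly.

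CircRNA10189, the SMARCA5 circRNA with the most reads (219), was at nearly the same mean SRPBM at both ages. It had 25, 27 and 54 reads in the piglets and 45, 56 and 12 in the adults, or 5.63 ± 2.31 and 5.66 ± 3.81 SRPBM (SD, n = 3 each). Its log2 fold change was 0.36 (SE 0.50) and changed sign with the scaling, to −0.013 with mapped reads. The ratio of circRNA10187 to circRNA10189 within a library, which does not depend on library size, was 2.36, 0.852 and 0.593 for the piglets and 0.267, 0.214 and 0.417 for the adults. The ratio was thus below 1 in 5 of 6 libraries and lower in each adult than in each piglet library. No share over other pairs of circRNAs was computed for this separation.

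The share of circRNA10187 in the SMARCA5 reads was 33.8% ± 11.5 (SD, n = 3) for the piglets and 12.0% ± 4.11 (SD, n = 3) for the adults. SMARCA5 circRNAs without a read in Piglet-D30 replicate 1 are not part of these reads. By library the share was 45.7% (95% interval 36.9 to 54.7), 22.8% (15.0 to 32.2) and 33.0% (23.8 to 43.3) in the piglets. In the adults it was 13.8% (7.34 to 22.9), 14.8% (7.90 to 24.4) and 7.25% (2.39 to 16.1). No libraries overlapped, though the interval of Piglet-D30 replicate 2 reached into those of the adult libraries. CircRNA10191 was the only other SMARCA5 circRNA whose shares did not overlap, and in the opposite direction, at 3.88%, 3.96% and 0% for the piglets and 5.75%, 7.41% and 14.5% for the adults. Among the 1034 exonic circRNAs with at least 10 reads from host genes with several circRNAs and reads in every library, every adult share lay below every piglet share for 9.86% and above for 10.1%.

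**Figure D3:**
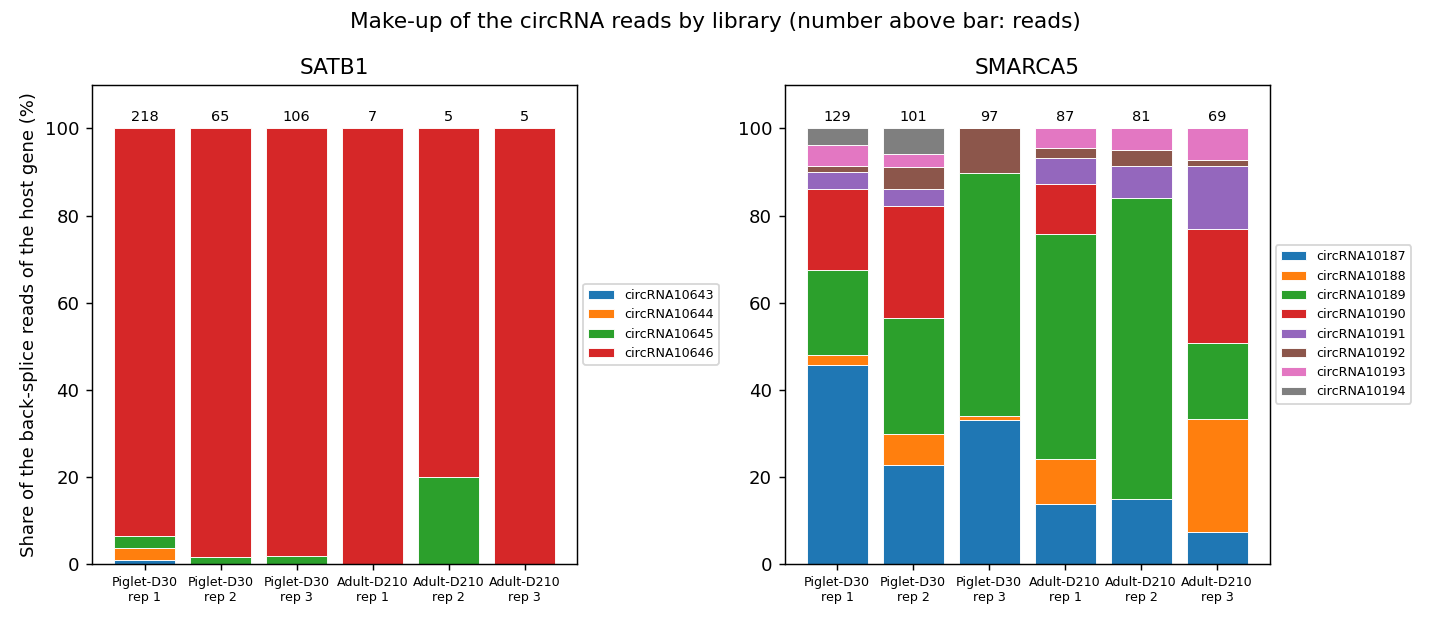
Share of each circRNA in the back-splice reads of its host gene (%), stacked to 100 in each library, with the number of reads above the bar. CircRNA10646 fills 80% or more of every SATB1 bar, while for SMARCA5 the share of circRNA10187 is 22.8% to 45.7% in Piglet-D30 and 7.25% to 14.8% in Adult-D210.

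In SRPBM, the libraries of each remaining SMARCA5 circRNA overlapped between the ages or, for circRNA10194, met at 0. Several of them varied widely between boars of 1 age. CircRNA10190 had 24 and 26 reads in Piglet-D30 replicates 1 and 2 and 0 in replicate 3, and 10, 0 and 18 in Adult-D210. Its share was 18.6% (95% interval 12.3 to 26.4) and 25.7% (17.6 to 35.4) in the former piglets, whereas 0 of 97 reads in replicate 3 allow up to 3.09%. In Adult-D210 it was 11.5% (5.65 to 20.1) in replicate 1 and 26.1% (16.3 to 38.1) in replicate 3, against 0 of 81 reads in replicate 2, which allow up to 3.70%. The libraries at 0 were those in which circRNA10189, on the other side of the shared intron, was highest, at 8.29 SRPBM in Piglet-D30 replicate 3 and 9.23 SRPBM in Adult-D210 replicate 2. CircRNA10189 made up 55.7% and 69.1% of the SMARCA5 reads there, and 17.4% to 51.7% in the other 4 libraries. Shares of 1 gene sum to 100%, so a high share of one lowers the others.

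CircRNA10188 also varied between boars, with 3, 7 and 1 reads in the piglets and 9, 0 and 18 in the adults (log2 fold change 1.61, SE 0.99, and 0.42 without Adult-D210 replicate 3). In Adult-D210 replicate 3 it and circRNA10190 had 18 reads each, more than circRNA10189 with 12. CircRNA10192 was highest in Piglet-D30 replicate 3, with 2, 5 and 10 reads, against 2, 3 and 1 in Adult-D210 (−1.17, SE 1.0, and −0.38 without Piglet-D30 replicate 3).

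CircRNA10191 and circRNA10193 had no read in Piglet-D30 replicate 3. CircRNA10191 had 5 and 4 reads in the other piglets and 5, 6 and 10 in Adult-D210 (log2 fold change 1.57, SE 0.93). CircRNA10193, the longest, had 6 and 3 reads in the other piglets and 4, 4 and 5 in Adult-D210 (0.87, SE 1.0, and 0.40 without Piglet-D30 replicate 3 or 1.64 without replicate 1). CircRNA10194 was seen only in Piglet-D30 replicates 1 and 2, with 5 and 6 reads. In Adult-D210, 0 of 237 SMARCA5 reads were of circRNA10194, which allows a share of up to 1.27%, and no fold change is given. None of these SMARCA5 circRNAs was called. Of the 8 SMARCA5 circRNAs, Piglet-D30 replicate 3 lacked 4 and Adult-D210 replicate 2 lacked 3, while Piglet-D30 replicate 2 lacked none. Replicate 1 could lack none, since every exonic circRNA of the table had a read in it.

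**Figure D4:**
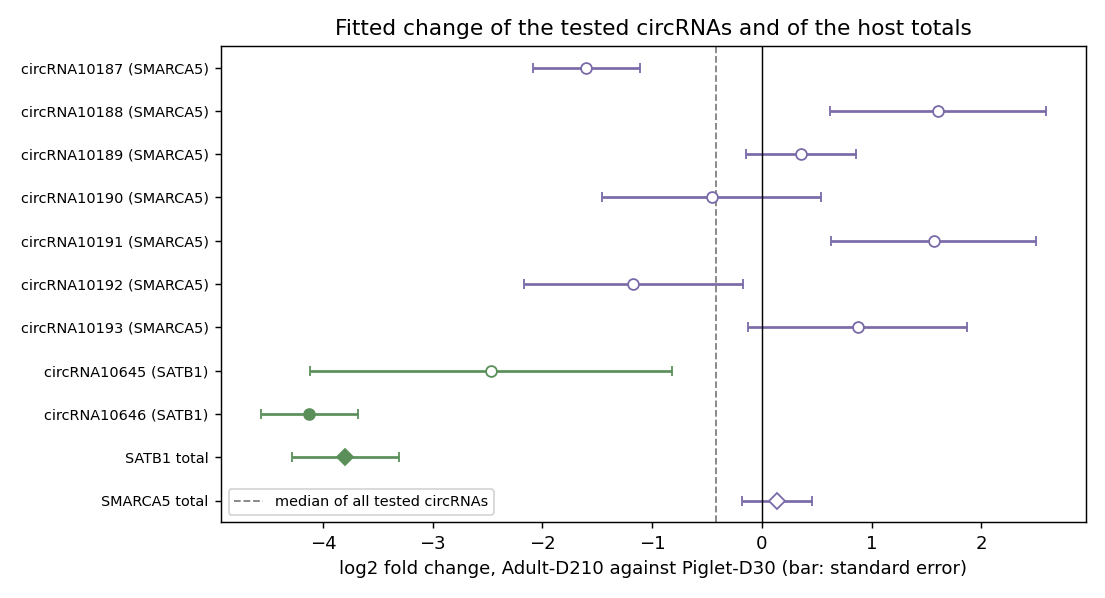
Fitted log2 fold change of Adult-D210 against Piglet-D30 with TMM scaling for 9 of the 10 circRNAs tested (circles, without circRNA10194, whose adult libraries were all at 0) and for the summed reads of each host gene (diamonds). Bars are standard errors, filled symbols were called, and the dashed line is the median of all circRNAs tested, −0.42. CircRNA10646 is at −4.13, whereas the SMARCA5 circRNAs shown lie on both sides of 0.

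The patterns over the 6 libraries were compared with those of the other tested circRNAs, as Pearson's r of log2 read counts scaled to library size. Most like circRNA10646 were ciRNA433, an intronic circRNA of ECHS1 (r = 0.996), circRNA10465 of ARHGAP24 (0.996) and circRNA11458 of PLCH1 (0.994). Each had reads in all 3 piglet libraries and 0 in the adults, so it passed the filter of 10 reads through the piglets alone. Piglet reads were 10, 5 and 7 for ciRNA433, 22, 7 and 15 for circRNA10465 and 9, 3 and 4 for circRNA11458. These r values thus largely restate the age difference by which SATB1 was chosen. ECHS1 is an enzyme of fatty acid oxidation and PLCH1 a phospholipase C. Most like circRNA10189 were circRNA11401 of the SNF2-family helicase gene HLTF (0.942), circRNA1159 of the autophagy gene ATG2B (0.941) and circRNA10578 of the host gene ENSSSCG00000011183 (0.922). CircRNA11401 rests on 13 reads in all, and libraries shared by both measures make these values a description only.

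Other genes that remodel or fold chromatin were followed through a list of 110 genes, drawn up with earlier results of these data known. Of these genes, 25 hosted 63 circRNAs (30 exonic, 33 intronic) in the table. The exonic circRNAs analysed here lie on chromosomes 13 (1693), 8 (560), 7 (257) and 12 (42), so a list gene on another chromosome could appear only through intronic circRNAs, and the absence of a gene says nothing of its circRNA output. Of the 63, 16 had 10 reads or more and were tested. Of these 16, 1 rose, 0 fell and 15 were not called, a share near the 8.28% called over all circRNAs tested (3.43% higher, 4.85% lower). There were 6 fold changes above and 10 below 0, with a median log2 fold change of −0.38 (−0.32 with the 2 circRNAs at 0 in every adult library set to a bound of 3 reads), against −0.42 over all circRNAs tested. The circRNA that rose was circRNA11496 of SMC4, a condensin subunit that compacts chromosomes in division. It had 4, 4 and 6 reads in the piglets and 60, 30 and 20 in the adults, or 0.749 and 5.27 SRPBM on average, opposite in direction to circRNA10646 (log2 fold change 3.19, SE 0.53, Benjamini-Hochberg adjusted p = 0.00187, quasi-likelihood test of edgeR). This p is adjusted over all circRNAs tested, which does not cover the choice of the list. The other tested SMC4 circRNA, circRNA11494, had 2, 4 and 4 reads against 0 in each adult library and was not called.

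HLTF, a SNF2-family enzyme of DNA damage tolerance, hosted 14 circRNAs, 10 of them tested and none called. Its most abundant, circRNA11405, had 28, 27 and 33 reads in the piglets and 41, 16 and 17 in the adults (−0.0057, SE 0.43). Of the other enzymes and subunits tested, circRNA10383 of SMARCAD1, a SNF2-family remodeller, had 3, 10 and 3 reads against 1, 0 and 3 (−1.62, SE 1.21), and circRNA11556 of ACTL6A, an actin-related subunit of SWI/SNF, had 4, 0 and 2 against 6, 7 and 0 (1.39, SE 1.16). The intronic ciRNA82 of CHD5, a remodeller of the NuRD family, had 9, 3 and 0 reads against 2, 0 and 0. CircRNA10655 of KAT2B, an acetyltransferase that SATB1 binds, had 8, 2 and 0 reads in Piglet-D30 and 0 in each adult library. Of the ISWI partners of SMARCA5, the table held 1 intronic circRNA each of BAZ2B (5 reads) and CECR2 (2 reads), too few to test.

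Cell type markers were summed by lists drawn up with earlier results of these data known, so their counts are a description only. The list of spermatocyte and spermatid genes had 24 members, 4 of them (HSPA4L, SLC9B1, IQCG and DNAH1) with 18 circRNAs, 13 tested, of which 5 rose, 0 fell and 8 were not called, beside 3.43% higher and 4.85% lower over all circRNAs tested. Their summed level was 7.79 to 10.17 SRPBM in Piglet-D30 and 16.0 to 49.8 SRPBM in Adult-D210. Markers of spermatogonia and Sertoli cells rested on intronic circRNAs of KIT (1 circRNA) and GATA4 (2 circRNAs), with too few reads to test. All adult libraries were at 0, and the piglet libraries ran from 0 to 0.614 and from 0 to 1.25 SRPBM. Leydig and peritubular genes (11 circRNAs, 2 tested, 0 called) were at 0.768 to 3.03 SRPBM in Piglet-D30 and 1.63 to 2.47 in Adult-D210. Among the endothelial and immune genes, 5 circRNAs of LEF1 and CD163 gave 7.22 to 15.5 SRPBM in Piglet-D30 and 9.84 to 36.5 in Adult-D210. CD163 had 1 of these circRNAs, with 1 read, so the sum rests on LEF1 and is not read as a level of these cell types. The 2 tested, both of LEF1, rose. The T cell genes CD3E, CD4 and CD8A and the leukocyte gene PTPRC were not among the host genes analysed here, so T cells were not assessed. The part of cell composition in the age difference of circRNA10646 and circRNA10187 was not tested.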

How the data were processed

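Testis circRNAs were sequenced in 3 Piglet-D30 and 3 Adult-D210 boars. Upstream, the authors used Cutadapt for trimming, TopHat2 for mapping, and TopHat-Fusion with CIRCExplorer2 to find back-splice junctions. They deposited raw counts of these reads per circRNA and library, and SRPBM, a signal normalized by the authors to mapped reads and read length. The last row of the table, of another gene, breaks off within its annotation.

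Members are the rows listed for SATB1 or SMARCA5. They, the gene lists and the tests were chosen with earlier results of these data known. Dividing each count by its SRPBM gave back the mapped reads. Counts were fitted with edgeR 4.0.16 (R 4.3.3, TMM, robust quasi-likelihood F test, all 6 libraries) over the 1341 circRNAs with at least 10 reads, and over summed exonic counts of 478 host genes, with Benjamini-Hochberg adjustment. The calling limits (adjusted p under 0.05, log2 fold change of at least 1) follow the study's methods. SE is the log2 fold change over the root of F. Python 3.11.15 with SciPy 1.17.1 gave exact binomial intervals. The circRNAs of the table had 12701 to 33091 back-splice reads per library, only part of those sequenced. Since no molecular identifiers were used, intervals cover counting error only. Replicates of an age differed by more than counting noise (chi-square over degrees of freedom 3.87 to 4.97), and no libraries were merged. On simulated data for the circRNA fit (1192 circRNAs, log2 fold changes of 2 or 3 in size), 19.2% and 40.8% of changed circRNAs were called, with 1 false call. Named circRNAs are all members, the 3 most like the main circRNA of each host gene, and from the chromatin list those called and the top circRNA of a host. CircRNA11494 was added after its values were seen. Of these hosts, those too rare to test are given as counts, with BAZ2B and CECR2 as examples. Marker circRNAs are summarized by list. Alternatives were DESeq2 1.42.0, mapped reads as library size, filters of 1 and 20 reads, a replicate block and each library left out. No sequences are shown, since none was used here.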

Additional observations from a re-analysis of the deposited data

How the results depend on the processing

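CircRNA10646 was called under all 11 alternatives, with log2 fold changes from −4.71 to −3.77, and without each library in turn from −4.35 to −3.77. The SATB1 sum, also called throughout, ran from −4.07 to −3.63 without each library. CircRNA10187 kept its direction in all of them (−1.78 to −1.32 without each library) and was called only with at least 20 reads (−1.60). CircRNA10189 changed sign with mapped reads as library size (−0.013) and without Adult-D210 replicate 2 (−0.12), with −0.12 to 0.93 over the libraries left out. CircRNA10190 turned positive without Piglet-D30 replicate 2 (0.19) or Adult-D210 replicate 2 (0.18), within −1.54 to 0.19 over the libraries left out. The SMARCA5 sum turned negative with mapped reads (−0.62) and without Piglet-D30 replicate 1 (−0.029), with −0.029 to 0.29 over the libraries left out. The other members tested kept their direction, and none was called in the alternatives that kept enough reads to test them (circRNA10645 and circRNA10194 fell below the filter in some). With single libraries left out, fold changes (log2) ran from 0.42 to 2.56 for circRNA10188, from −1.66 to −0.38 for circRNA10192 and from 0.40 to 1.64 for circRNA10193. The ratios of mean SRPBM without Piglet-D30 replicate 1 were chosen after seeing the data.

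With the replicate number as a block, circRNAs called fell from 111 to 33 (circRNA10646 at −4.14 among them). Same-numbered libraries come from different boars, and their deviations from the age means correlated at 0.05, −0.01 and −0.03, so the numbers do not pair the samples. Without each library in turn, 39 to 78 circRNAs and, of 107 host genes, 61 to 102 were called. Calls higher in Adult-D210 were 46 with TMM and 9 with mapped reads, and calls lower 65 and 68. The list of other chromatin genes gave 1 call, circRNA11496, in every fit. Shares moved by less than 1 SD when reads were pooled or rare circRNAs dropped. Leaving out libraries gave 95.8% to 98.3% (Piglet-D30) and 90.0% to 100% (Adult-D210) for circRNA10646, 27.9% to 39.4% and 10.5% to 14.3% for circRNA10187, and 23.1% to 41.2% and 34.6% to 60.4% for circRNA10189. The cause of these changes was not tested. Depth limits the adult SATB1 make-up, which rests on 17 reads, and each SMARCA5 circRNA below about 30 reads. Shares and sums also leave out any circRNA without a read in Piglet-D30 replicate 1.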

Other observations

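CircRNA10190 of SMARCA5 was singled out after its values were seen. Libraries with no read for it stood beside libraries of the same age with 10 to 26 reads. Of the 308 exonic circRNAs with 25 to 75 reads in the Piglet-D30 group, 20 (6.49%) had a library at 0, and of the 238 in that range in Adult-D210, 30 (12.6%) did. At least 25 reads in each age and a library at 0 in both ages were found for 6 of 291 exonic circRNAs (2.06%), circRNA10190 of SMARCA5, circRNA10258 of KIAA1109, circRNA10460 of MAPK10, circRNA11248 of TXNRD3, circRNA11524 of PRKCI and circRNA12266 of TBCD. Piglet-D30 replicate 1 cannot be at 0 in this table. The ratio of circRNA10190 to circRNA10189 reads was 0.96, 0.963 and 0 for the piglets and 0.222, 0 and 1.5 for the adults.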
